A study of Mus musculus with 48 samples.

Results

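Mast cells are followed here in the small intestine of growing mice through 7 genes: the chymases Mcpt1, Mcpt2, Mcpt4 and Cma1, the carboxypeptidase Cpa3, the tryptase Tpsb2 and Fcer1a, the alpha chain of the high-affinity IgE receptor. They were taken by symbol from the gene names the authors deposited, 7 of 54532 gene identifiers. Total RNA of the whole gut wall was sequenced from 2 cm of duodenum just past the stomach and 2 cm of ileum just before the caecum. Each region gave 3 samples at each of 8 ages, 48 samples in all: every other day from birth (day 0) to day 8, then week 2, 3 and 4. Every mouse was labelled C57Bl/6J with no other genotype or treatment, males and females were used, and pups stayed with the dam until day 21 before moving to chow. A litter usually gave mice of more than 1 age. Their housing is called germ-free in the labels, and whether the mice lacked microbes was not settled here. The labels do not say whether duodenum and ileum samples of 1 age and number came from 1 animal, nor that the 3 samples of a group came from separate litters, so p-values measure only the spread between these samples.

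Mast cells leave the bone marrow as progenitors and mature in the tissue they settle in, filling with granules that hold histamine, proteoglycan and proteases. In the mouse, mucosal mast cells of the gut lining carry the chymases Mcpt1 and Mcpt2, whereas connective tissue mast cells, as in skin, submucosa and serosa, carry Mcpt4, Cma1 and the tryptases along with much Cpa3. Immunoglobulin E bound to its receptor arms the cell, and antigen then triggers release of the granules.

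The 4 chymase genes lie in 1 cluster on chromosome 14 of GRCm38 (mm10), by GENCODE M21: Cma1 (ENSMUSG00000022225) at 55941451 to 55944675 on the minus strand, Mcpt1 (ENSMUSG00000022227) at 56017971 to 56020384 on the plus strand, Mcpt2 (ENSMUSG00000022226) at 56042041 to 56044642 on the plus strand and Mcpt4 (ENSMUSG00000061068) at 56059629 to 56062313 on the minus strand. Cpa3 (ENSMUSG00000001865) lies on chromosome 3 at 20215620 to 20242181, Tpsb2 (ENSMUSG00000033825) on chromosome 17 at 25366305 to 25369098 and Fcer1a (ENSMUSG00000005339) on chromosome 1 at 173221284 to 173227214. The chymase transcripts share only short identical runs. Mcpt1 and Mcpt2 transcripts share a run of 49 identical bases and Mcpt1 and Mcpt4 a run of 46. Stretches of 31 bases that also occur in another gene made up 6.71% of Mcpt1, 5.14% of Mcpt2, 12.2% of Mcpt4, 10.6% of Cma1 and 0.557% of Tpsb2, and none of Cpa3 or Fcer1a. For Cma1 the other gene was Gm48934, and it shared 0 such stretches with Mcpt1 or Mcpt4. Estimated counts of Mcpt1, Mcpt2 and Mcpt4 can therefore hold some reads that a model divided among related genes.

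The sequence before the start of transcription is shown for 4 members, because 3 of them belong to 1 gene cluster. Mcpt1 and Mcpt4 of this cluster rose from day 0 to day 8, whereas Cma1 had 3 counts or fewer in 34 of 46 libraries. The RefSeq promoter table (GRCm38.p6) matched 5 of the 7 members, without Mcpt2 and Tpsb2. Each line gives the 250 bases before the start, read in the direction of the gene: Mcpt1 chr14:56017714-56017963 on the plus strand, and Mcpt4 chr14:56062311-56062560, Cma1 chr14:55944676-55944925 and Cpa3 chr3:20242182-20242431 on the minus strand. Capitals mark GATAA, a letter pattern bound by GATA factors, or its reverse complement.
Mcpt1: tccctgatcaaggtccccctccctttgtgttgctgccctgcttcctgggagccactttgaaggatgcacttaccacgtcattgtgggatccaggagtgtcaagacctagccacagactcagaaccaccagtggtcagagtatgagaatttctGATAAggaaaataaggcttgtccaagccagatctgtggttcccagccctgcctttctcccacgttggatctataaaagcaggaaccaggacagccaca
Mcpt4: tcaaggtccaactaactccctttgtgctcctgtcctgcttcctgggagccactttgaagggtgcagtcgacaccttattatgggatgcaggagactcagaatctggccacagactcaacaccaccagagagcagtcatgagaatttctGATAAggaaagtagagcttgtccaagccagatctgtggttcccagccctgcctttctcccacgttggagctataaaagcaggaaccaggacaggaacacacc
Cma1: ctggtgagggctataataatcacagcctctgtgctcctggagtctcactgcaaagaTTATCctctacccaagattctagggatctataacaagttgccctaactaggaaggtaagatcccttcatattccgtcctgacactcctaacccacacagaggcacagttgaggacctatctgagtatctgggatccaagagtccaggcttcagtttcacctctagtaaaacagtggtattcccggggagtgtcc
Cpa3: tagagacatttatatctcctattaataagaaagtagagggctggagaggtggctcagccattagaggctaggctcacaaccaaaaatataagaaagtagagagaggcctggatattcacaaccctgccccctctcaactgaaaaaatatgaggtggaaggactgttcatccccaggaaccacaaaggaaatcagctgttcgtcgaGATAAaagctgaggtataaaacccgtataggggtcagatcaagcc
All 5 matched members held 1 GATAA on either strand in this window, which 22.6% of 32851 promoters of the same length hold. Among related genes outside the members, Mcpt8 and Mcpt9 of the same cluster held 0. Ms4a2, of the IgE receptor, held 3, and the windows of the tryptase Tpsg1 held 1 and 0. The Mcpt9 window was identical to that of Mcpt1 at 47.9% of aligned columns. In Mcpt1 it began 98 bases and in Mcpt4 102 bases before the start. Aligned end to end, the Mcpt1 and Mcpt4 windows were identical at 208 of 254 columns (81.9%), with an unbroken run of 53, against 52.7% for Mcpt1 and Cma1 and 47.0% for Mcpt1 and Cpa3. These are matches of letters and say nothing of what binds there.

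Estimated counts summed to between 16824021 and 65042327 per library, so 1 count was worth 0.0179 to 0.0668 CPM (counts per 1000000 counts of a library, with library sizes scaled by TMM, the trimmed mean of M values). The libraries labelled day 6 number 3 look exchanged between the regions and were left out of all tests, which leaves 46 libraries and 2 per region at day 6. Duodenum day 0 numbers 2 and 3 stand apart: they held both Xist, an RNA of female cells, at 743 and 814 CPM and the Y-linked Ddx3y at 21.0 and 25.0 CPM, whereas 30 of the 46 libraries had Xist alone and 14 had Ddx3y alone. Many results that use these mixed-sex libraries are given with and without them. Where a result that uses duodenum day 0 is given only once, it includes them. Without them duodenum day 0 is 1 library, assumed to vary like the other groups. Duodenum day 4 number 3 also stood apart from its group, with smooth muscle markers (5 genes) summing to 39.4 CPM against 5.34 and 5.51 CPM in the others. This sum varied within other groups too, from 9.49 to 42.5 CPM in duodenum week 4 and from 31.9 to 182 CPM in ileum week 4. Mcpt1 and Mcpt2 were detected in every library, whereas Fcer1a, a defining mast cell marker, was at or near 0 in nearly all.

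The members differed widely in level. Per kilobase of exon, Mcpt1 averaged 26.4 CPM in day 8 duodenum, Mcpt2 17.6, Cpa3 1.67, Mcpt4 0.907, Cma1 0.0817, Fcer1a 0.0514 and Tpsb2 0.0226 CPM per kilobase. At day 8 the mucosal chymases thus stood above the other members. Fcer1a gave 38 counts over all 46 libraries, at most 7 in 1 library and 0 in 30 libraries, and failed the low-count filter, so nothing was tested for it. The other 6 were tested with edgeR over 21986 genes, and a gene is called at a Benjamini-Hochberg adjusted p under 0.05. Mcpt1, Mcpt2 and Cpa3 reached the filter's level of 0.305 CPM, here without TMM scaling, in 43, 44 and 32 of 46 libraries, Mcpt4 in 21, Cma1 in 4 and Tpsb2 in 4, so the last pair passed through a few libraries alone. For both genes these included duodenum day 0 numbers 2 and 3, in the group from which their falls are tested. The wall is a mix of cells, and in such samples more mast cells and more RNA per mast cell cannot be told apart.

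Mcpt1 and Mcpt2, the mucosal chymases, rose from near nothing at birth to a peak at day 6 and day 8 and fell again by week 2, in both regions. In the duodenum Mcpt1 measured 0.222, 0.546 and 1.09 CPM at day 0, 2.86, 2.38 and 2.00 at day 2, 4.05, 4.09 and 14.1 at day 4, and 17.5 and 19.4 at day 6. It then measured 36.6, 23.4 and 20.5 CPM at day 8, 5.35, 4.93 and 5.76 at week 2, 1.45, 3.98 and 2.95 at week 3 and 3.96, 4.17 and 2.55 at week 4. All 5 libraries of day 6 and day 8 lay above the other 18, the nearest being day 4 number 3. In the ileum Mcpt1 measured 0.111, 1.09 and 0.238 CPM at day 0, 1.24, 1.78 and 1.43 at day 2, 2.19, 8.93 and 2.36 at day 4, and 22.1 and 14.2 at day 6. Later ileum libraries gave 31.9, 18.4 and 14.2 CPM at day 8, 4.27, 3.63 and 4.09 at week 2, 1.28, 3.38 and 2.31 at week 3 and 11.2, 2.48 and 6.15 at week 4. The day 6 and day 8 libraries again stood clear of the other 18, whose highest was week 4 number 1.

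Over the 16 groups the mean Mcpt1 level was highest in day 8 duodenum at 26.8 CPM, then day 8 ileum at 21.5, day 6 duodenum at 18.4 and day 6 ileum at 18.2 CPM. It was lowest at day 0, with 0.621 CPM in duodenum and 0.478 in ileum. Of the 15 neighbouring pairs in this order, 13 overlapped between libraries. The exceptions were day 6 ileum over day 4 duodenum and day 2 ileum over day 0 duodenum. For Mcpt2 all 15 neighbouring pairs overlapped. Mean Mcpt4 was highest in day 6 ileum at 1.17 CPM and lowest in week 4 duodenum at 0.0539, with 14 of 15 neighbouring pairs overlapping. For Cpa3, 5 groups stood at 2.14 CPM or more, namely duodenum day 0, 6 and 8 and ileum day 6 and 8, and the next was day 4 duodenum at 0.725 CPM, the 1 break among 15 neighbouring pairs. For Cma1, Tpsb2 and Fcer1a all neighbouring groups overlapped.

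**Figure D1:**
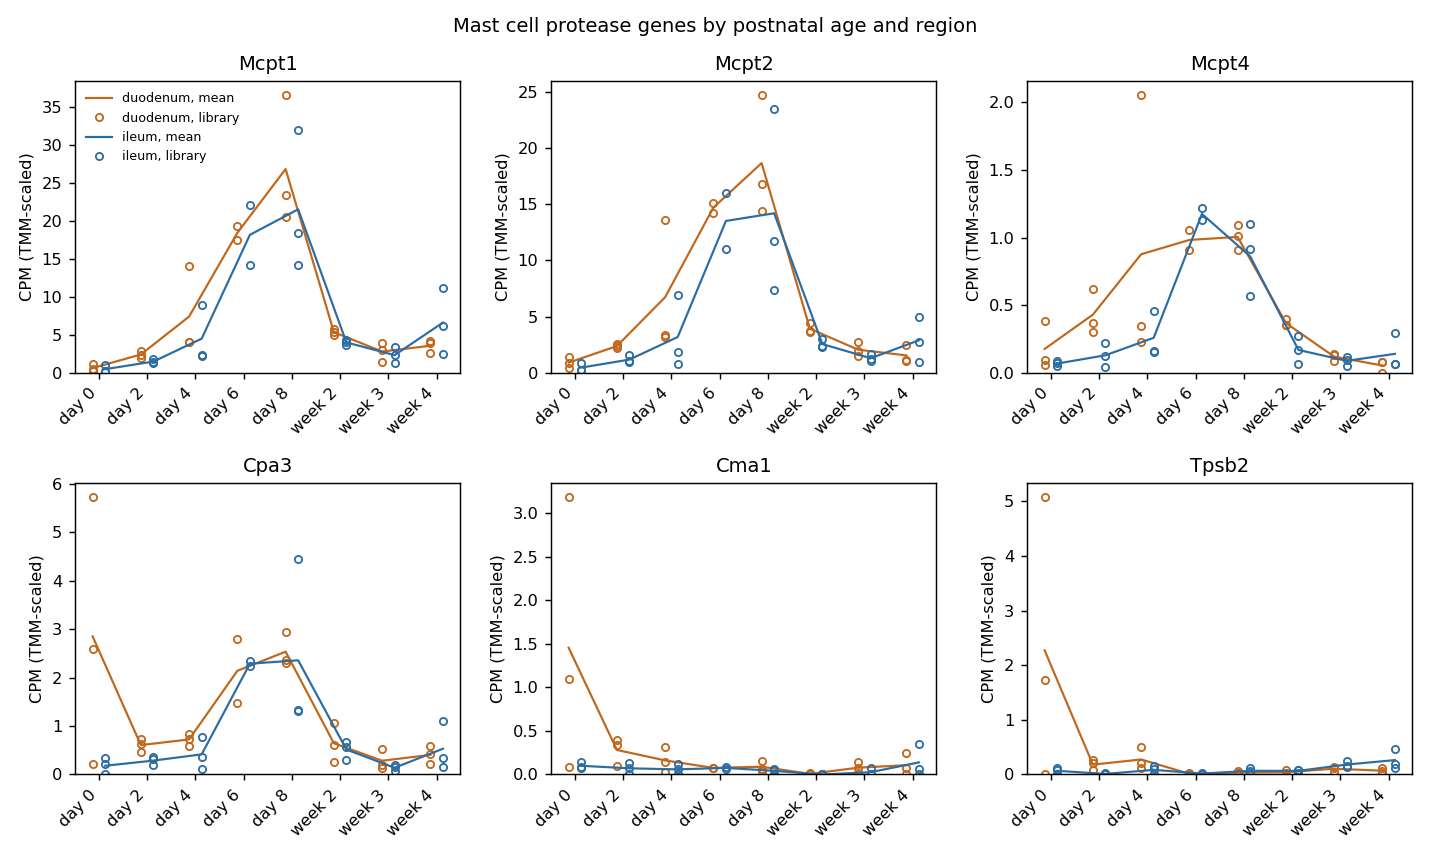
TMM-scaled CPM of 6 mast cell genes (y axes, each from 0) against age (x axis) in duodenum and ileum. Open circles are libraries and lines join group means. Mcpt1 and Mcpt2 are highest at day 6 and day 8 in both regions, and Mcpt4 and Cpa3 are so in the ileum. In the duodenum the highest Mcpt4 library is day 4 number 3 and the highest Cpa3 library is day 0 number 3, and Cma1 and Tpsb2 are highest in duodenum day 0 numbers 2 and 3.

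Mcpt2 was also highest at day 6 and day 8, with no overlap with other ages in either region. It stood above Mcpt1 in all 3 duodenum libraries of day 0 and below it in all libraries of day 8. In the duodenum it measured 0.416, 0.911 and 1.38 CPM at day 0, 24.7, 16.8 and 14.4 at day 8, 4.43, 3.66 and 3.68 at week 2 and 2.48, 1.14 and 1.03 at week 4. In the ileum the values were 0.222, 0.877 and 0.285 CPM at day 0, 23.5, 11.7 and 7.38 at day 8, 3.04, 2.27 and 2.35 at week 2 and 4.95, 0.993 and 2.74 at week 4. Across the 46 libraries log2 CPM of Mcpt2 and Mcpt1 correlated at Pearson's r = 0.955, the highest of any gene with Mcpt1, and the part of their shared sequence in this was not tested.

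The first comparison asked how the genes changed over the first days. By edgeR, Mcpt1 rose 40.9-fold from day 0 to day 8 in the duodenum (log2 fold change 5.35 ± 0.67 SE, adjusted p = 6.98e-08) and 47.8-fold in the ileum (5.58 ± 0.70, edgeR adjusted p = 4.02e-07). Mcpt2 rose 20.2-fold and 31.9-fold (4.33 ± 0.64 and 4.99 ± 0.70, edgeR adjusted p = 1.38e-06 and 2.25e-06). In all, 5 of the 6 tested members were called in the duodenum, 3 higher and 2 lower, where 41.2% of all genes were called, 22% higher and 19.2% lower. In the ileum 4 were called, all higher, where 19.3% of all genes were called, 8.56% higher and 10.7% lower. The median log2 fold change over the 6 was 1.09 in duodenum and 3.60 in ileum, and over all genes -0.06 and 0.01.

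Every library of day 6, day 8 and week 4 was of the Xist pattern alone. Sex thus differed between the peak ages and the other ages except week 4. At week 4 Mcpt1 ran from 2.55 to 4.17 CPM in duodenum and from 2.48 to 11.2 CPM in ileum. Outside the peak ages, duodenum Mcpt1 ran from 0.222 to 5.76 CPM in the 7 libraries with Ddx3y alone, and ileum Mcpt1 from 0.111 to 4.09 CPM in 7. In Xist-alone libraries outside day 6 and day 8 it ran from 1.45 to 14.1 CPM in 9 of duodenum and from 0.238 to 11.2 CPM in 11 of ileum. Both patterns occur in both regions at day 2, day 4, week 2 and week 3. At day 2 Mcpt1 in duodenum was 2.00 and 2.38 CPM with Ddx3y alone and 2.86 with Xist alone. In ileum it was 1.43 and 1.78 against 1.24 CPM. At day 4 it was 4.05 against 4.09 and 14.1 in duodenum and 2.19 against 2.36 and 8.93 in ileum. At week 2 it was 5.76 against 4.93 and 5.35, then 4.09 against 3.63 and 4.27. At week 3 it was 2.95 and 3.98 against 1.45, then 2.31 and 3.38 against 1.28 CPM. The order thus varied. The part of sex in the peak was not tested.

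Mcpt4, a chymase of connective tissue mast cells, had much lower levels than the mucosal chymases and rose with them from day 0 to day 8. Its duodenum values were 0.0554, 0.0911 and 0.383 CPM at day 0 (2, 2 and 21 counts), 1.06 and 0.909 at day 6, 1.01, 0.907 and 1.10 at day 8, 0.354, 0.399 and 0.350 at week 2 and 0.0782, 0.0834 and 0 at week 4. Its highest single value, 2.05 CPM, came from duodenum day 4 number 3, so in the duodenum the peak ages overlap with day 4. In the ileum it measured 0.0739, 0.0835 and 0.0475 CPM at day 0, 1.22 and 1.13 at day 6, 1.10, 0.916 and 0.566 at day 8 and 0.291, 0.0621 and 0.0668 at week 4, with no overlap between the peak ages and the rest. It rose from day 0 to day 8 by 2.35 ± 0.64 (log2, edgeR adjusted p = 0.00305) in duodenum and by 3.62 ± 0.77 (0.000704) in ileum.

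Cpa3, the granule carboxypeptidase of mast cells, also peaked at day 6 and day 8 in the ileum. There it measured 0, 0.209 and 0.333 CPM at day 0, 2.35 and 2.23 at day 6, 4.45, 1.32 and 1.3 at day 8, 0.679, 0.572 and 0.294 at week 2 and 1.11, 0.155 and 0.334 at week 4. The day 6 and day 8 libraries all lay above the other 18, and the rise to day 8 was 3.57 ± 0.82 (log2, edgeR adjusted p = 0.00155). In the duodenum Cpa3 was 0.222 CPM at day 0 in number 1 but 2.6 and 5.74 in the mixed-sex libraries, against 1.48 and 2.8 at day 6 and 2.94, 2.36 and 2.31 at day 8. With them its change to day 8 was -0.18 ± 0.66 (edgeR adjusted p = 0.855), and without them it rose by 3.39 ± 1.08 (0.0182).

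Cma1 and the tryptase Tpsb2, genes of connective tissue mast cells, were the only members called lower at day 8, in the duodenum alone. Tpsb2 measured 0, 1.73 and 5.08 CPM in the 3 duodenum libraries of day 0, numbers 1 to 3, and Cma1 0.0832, 1.09 and 3.19 CPM. Everywhere else Tpsb2 reached at most 0.498 CPM and Cma1 at most 0.400 CPM. Numbers 2 and 3 of duodenum day 0 gave 69.1% of all Tpsb2 counts and 60.1% of all Cma1 counts over 46 libraries, but 0.619% of Mcpt1 counts and 1.15% of Mcpt2 counts. Tpsab1, another tryptase, gave 0.273 and 0.456 CPM in those libraries and at most 0.0512 CPM in any other. So the libraries with both sex patterns were also those highest in Cma1, Tpsb2 and Tpsab1. The tryptase Tpsg1 had no such fall, at -0.31 ± 0.22 from day 0 to day 8 in duodenum (log2, edgeR adjusted p = 0.273). Mcpt4 went with Cma1, Tpsb2 and Tpsab1 only in part: number 2 held 2 counts of it, as number 1 did. Number 3 held 0.383 CPM (21 counts), the highest Mcpt4 of the day 0 libraries but below every library of day 6 and day 8.

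With the mixed-sex libraries the fall to day 8 was -5.84 ± 1.05 for Tpsb2 (log2, edgeR adjusted p = 2.31e-05) and -4.00 ± 1.04 for Cma1 (0.00194). The same libraries were among the few in which both genes reached the level of the low-count filter. Leaving out number 3 alone moved Cma1 to -2.65 (edgeR adjusted p = 0.0591). Without both libraries Cma1 moved to -0.02 (edgeR adjusted p = 1) and the fitted Tpsb2 value turned to 3.36 (0.315), where day 0 is 1 library with 0 Tpsb2 counts. Of the 6 tested, 4 were then called, all higher: Mcpt1 (6.79 ± 1.2), Mcpt2 (5.37 ± 1.13), Mcpt4 (3.98 ± 1.15) and Cpa3, with edgeR adjusted p = 9.41e-05, 0.000638, 0.00919 and 0.0182, where 25% of 23521 genes were called. More genes pass the filter there because the smallest group is 1 library. Neither Cma1 nor Tpsb2 was called over age in the ileum (edgeR adjusted p = 0.359 and 0.174).

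Markers of other cells in the 3 duodenum libraries of day 0 are given beside this. The 3 leukocyte markers summed to 10.4, 21.3 and 30.2 CPM in numbers 1 to 3, the 10 pancreatic acinar markers to 19.4, 33.9 and 51.0, the 5 smooth muscle markers to 17.5, 21.4 and 18.6 and the 5 markers of mesentery, mesothelium and fat to 5.77, 5.87 and 4.67 CPM. Leukocyte and acinar markers were thus higher in the mixed-sex libraries. The sums for smooth muscle and for mesentery, mesothelium and fat were close to number 1. Gata2, a transcription factor of mast cell progenitors, was 0.693 CPM in number 1 and 3.28 and 2.48 in numbers 2 and 3, but also 2.17 and 2.28 CPM in ileum day 0 numbers 2 and 3, which had Xist alone. The part of any of these in the protease values was not tested.

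**Figure D2:**
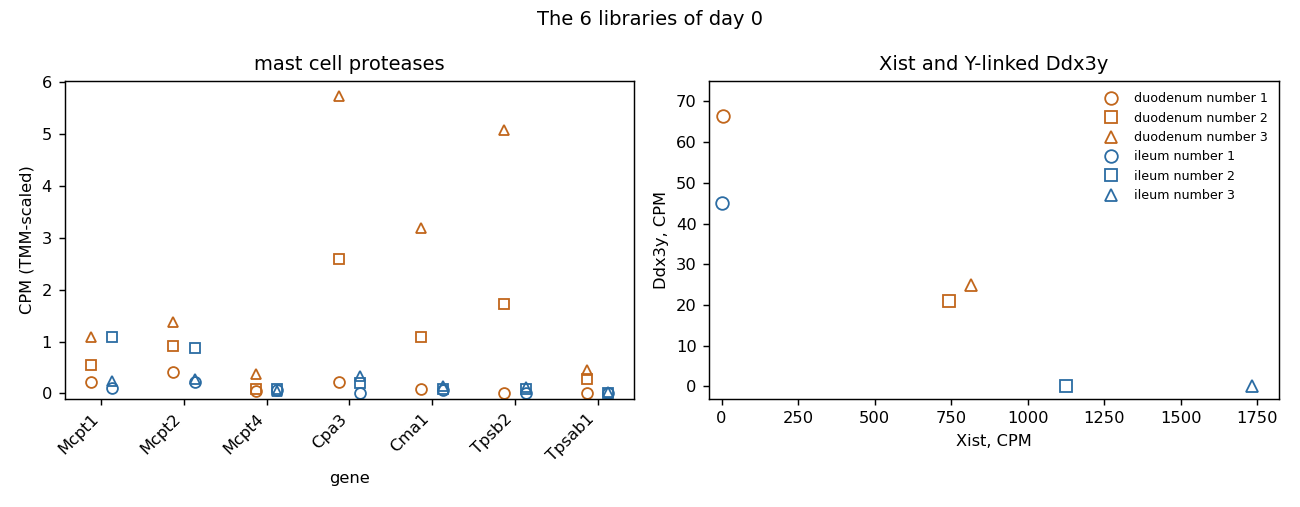
Left, TMM-scaled CPM of 7 protease genes (x axis) in the 6 libraries of day 0, by region (colour) and number (symbol). Right, Ddx3y against Xist in CPM for the same libraries. Duodenum numbers 2 and 3 hold both Xist and Ddx3y and have the highest Cpa3, Cma1, Tpsb2 and Tpsab1 values.

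The peak had ended by week 2. From day 8 to week 2 Mcpt1 fell by 2.32 ± 0.56 on the log2 scale in the duodenum (5.01-fold, edgeR adjusted p = 0.005). In the ileum it fell by 2.43 ± 0.56 (5.37-fold, edgeR adjusted p = 0.00904). Mcpt2 fell by 2.25 ± 0.57 and fell by 2.47 ± 0.58 (edgeR adjusted p = 0.00741 and 0.00992), and Mcpt4 fell by 2.28 ± 0.66 in the ileum (0.0305). Of the 6 tested, 2 were called in duodenum and 3 in ileum, all lower. Among all genes 15.7% were called in duodenum, 8.93% lower, and 6.64% in ileum, 2.47% lower. This step reuses the day 8 libraries of the rise.

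The remaining members gave values short of the threshold: Mcpt4 in duodenum -1.44 ± 0.61 (edgeR adjusted p = 0.109), Cpa3 in duodenum -1.93 ± 0.71 (0.0581) and Cpa3 in ileum -2.15 ± 0.73 (0.0674). Cma1, with 0 counts in ileum week 2, had edgeR adjusted p of 0.249 in duodenum and 0.289 in ileum, and Tpsb2 (0.33 and -0.04) had 0.916 and 0.994. The Cpa3 fall was called by DESeq2 (adjusted p = 0.0429 in duodenum and 0.0317 in ileum), and by edgeR without the mixed-sex libraries (0.038 and 0.0348) and without day 4 (0.0494 and 0.0492). In duodenum it was also called with the replicate block (edgeR adjusted p = 0.0402) and without week 2 number 3 (0.0486), and Mcpt4 in duodenum was called without day 4 (0.04). The ileum calls were lost without day 8 number 1, the highest, though the values stayed negative. Mcpt1 was then -2.03 (edgeR adjusted p = 0.114), Mcpt2 -1.90 (0.153) and Mcpt4 -2.08 (0.188). Calls among all genes also moved in this ileum step, from 1460 to between 60 and 1376 with 1 library left out. Without ileum week 2 number 3 Mcpt2 was -2.41 (edgeR adjusted p = 0.0557). Mcpt4 in the ileum lost its call when any 1 of its libraries but day 8 number 3 was left out, with values from -2.75 to -1.94.

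**Figure D3:**
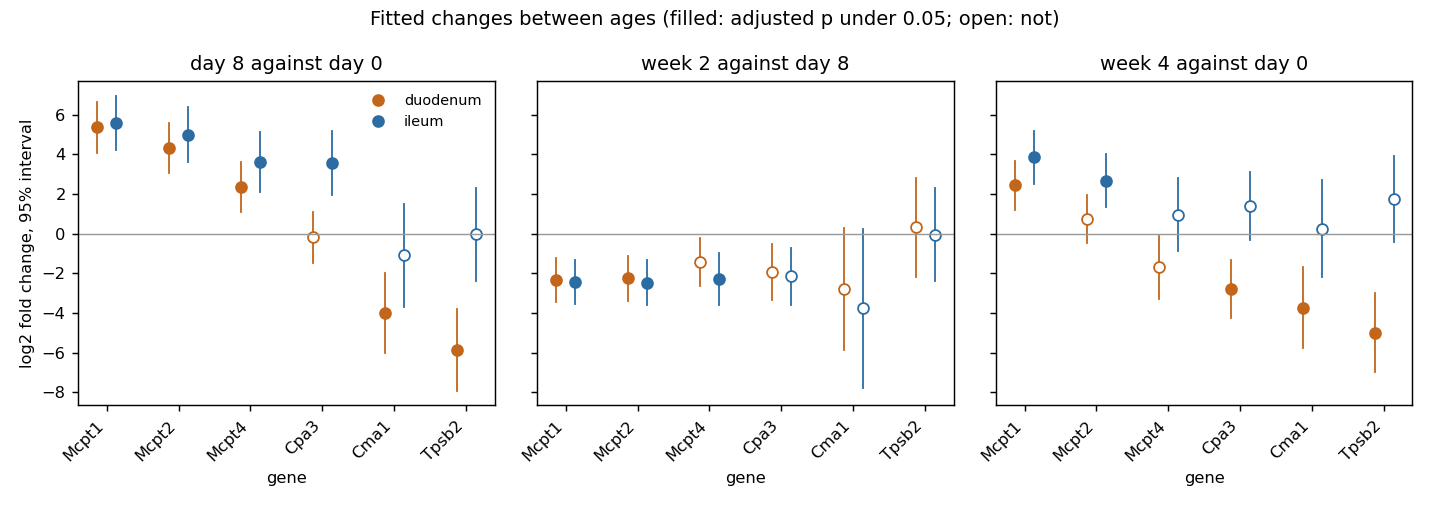
Fitted log2 fold changes (y axis) of 6 mast cell genes (x axis) for 3 contrasts, by region, with 95% intervals as bars. Filled points have an adjusted p under 0.05. Mcpt1 and Mcpt2 sit above 0 at day 8 in both regions and below 0 from day 8 to week 2, and the duodenum falls of Cma1 and Tpsb2 rest on the mixed-sex libraries.

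Across weaning no member was called. From week 2 to week 3 edgeR called 0 of 6 in either region, where 18.3% of all genes were called in duodenum and 26.8% in ileum. At an unadjusted p under 0.05 it gave 1 in duodenum (Mcpt4) and 1 in ileum (Cpa3), and DESeq2 called 0 in both. From week 3 to week 4 edgeR called 0 of 6 again, against 12.7% and 16.1% of all genes, with 0 in duodenum and 1 in ileum (Mcpt1) at an unadjusted p under 0.05 and the same counts by DESeq2. Mcpt1 in the ileum came nearest, at 1.5 ± 0.59 (log2, edgeR adjusted p = 0.0798, 95% interval 0.35 to 2.65). Without ileum week 4 number 2, the lowest, it was 1.90 (0.0271).

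At week 4 Mcpt1 still stood above its level at birth in both regions. Mcpt1 was 5.45-fold higher at week 4 than at day 0 in the duodenum (log2 2.45 ± 0.63, edgeR adjusted p = 0.00189) and 14.5-fold higher in the ileum (3.86 ± 0.68, 1.85e-05). Mcpt2 rose in the ileum by 2.67 ± 0.69 (edgeR adjusted p = 0.00192), and its duodenum value was 0.76 ± 0.62 (0.343). Mcpt4 measured -1.70 ± 0.81 in duodenum and 0.96 ± 0.93 in ileum (edgeR adjusted p = 0.092 and 0.428). In the ileum 2 of 6 were called, both higher, against 41.9% of all genes, 21.5% higher and 20.4% lower.

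In the duodenum 4 of 6 were called, 1 higher and 3 lower, against 40.5% of all genes, 20.4% higher and 20.1% lower. The lower ones were Cpa3 (-2.80 ± 0.74, edgeR adjusted p = 0.0025), Cma1 (-3.73 ± 1.04, 0.00393) and Tpsb2 (-4.99 ± 1.01, 0.000114). All 3 rest on the mixed-sex libraries: without them the values were 0.88 for Cpa3 (edgeR adjusted p = 0.575), 0.36 for Cma1 (0.911) and 4.32 for Tpsb2 (0.182). Mcpt1 was then the 1 member called, at 4.00 ± 1.12 (edgeR adjusted p = 0.00772), where 23.5% of all genes were called. Leaving out number 3 alone gave Cpa3 -1.68 (edgeR adjusted p = 0.0841) and Cma1 -2.32 (0.106), and 2 members were called.

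Tested over all 8 ages at once, edgeR called all 6 tested members in the duodenum, where 67.4% of genes were called, and 4 in the ileum, where 58.7% were. The ileum calls were Mcpt1, Mcpt2, Mcpt4 and Cpa3 (edgeR adjusted p = 1.83e-08, 4.53e-08, 1.05e-05 and 6.11e-05). The duodenum calls of Mcpt1 and Mcpt2 had edgeR adjusted p = 1.73e-08 and 8.28e-08. Cma1 had edgeR adjusted p = 4.55e-05 in the duodenum and 0.163 without the mixed-sex libraries.

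The next comparison asked whether the regions differ. Mcpt1 was not called different between the ends of the small intestine, while Mcpt2, Mcpt4, Cpa3 and Cma1 were called lower in the ileum with the mixed-sex libraries and not without them. Averaged over ages Mcpt1 differed by -0.27 ± 0.21 (log2, ileum minus duodenum, edgeR adjusted p = 0.275, 95% interval -0.68 to 0.14). Mcpt2 was 1.43-fold lower in the ileum (-0.51 ± 0.22, edgeR adjusted p = 0.0382), Mcpt4 1.58-fold (-0.66 ± 0.27, 0.0323), Cpa3 1.80-fold (-0.85 ± 0.28, 0.00904) and Cma1 2.56-fold (-1.36 ± 0.58, 0.0422). Thus 4 of 6 were called, all lower in ileum, where 62.1% of all genes were called and 30.2% were lower. None of the 4 was called without the mixed-sex libraries (-0.35 for Mcpt2, -0.42 for Mcpt4, -0.37 for Cpa3 and -0.83 for Cma1, edgeR adjusted p from 0.152 to 0.233), where 55.8% of all genes were. Of 53 alternatives, most of them leaving out 1 library, Mcpt2 lost its call in 20, Mcpt4 in 11, Cma1 in 21 and Cpa3 in 1.

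Age by age the regional calls were few. At day 0 Cpa3, Cma1 and Tpsb2 were lower in the ileum (-3.88 ± 0.81, -3.78 ± 1.05 and -4.92 ± 1.02, edgeR adjusted p = 0.00244, 0.0251 and 0.00195), 3 of 6 against 6.1% of all genes, 3.14% lower. None of the 6 was called at day 0 without the mixed-sex libraries, nor without number 3 alone, where Cpa3 was -2.78 (edgeR adjusted p = 0.0602), Cma1 -2.39 (0.323) and Tpsb2 -3.46 (0.0745). In the fit without both, 0.349% of all genes were called. Leaving out any 1 ileum day 0 library also ended the Cma1 call, with values from -4.16 to -3.61.

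At day 4 Mcpt4 was lower in the ileum (-1.77 ± 0.65, edgeR adjusted p = 0.0386), 1 of 6 where 26.6% of all genes were called and 15% were lower. This rested on duodenum day 4 number 3: without it Mcpt4 was -0.19 (edgeR adjusted p = 0.876). It was also lost without ileum day 4 number 1 (-1.53, edgeR adjusted p = 0.152) or number 3 (-1.48, 0.163), and without number 2 a total of 3 members were called. In duodenum day 4 number 3 Mcpt1 measured 14.1 CPM, Mcpt2 13.6 and Mcpt4 2.05 against at most 4.09, 3.41 and 0.345 CPM in its group, and its leukocyte markers summed to 29.4 CPM against 13.1 and 17.4 CPM. Ileum day 4 number 2 was likewise high, with Mcpt1 at 8.93 CPM and leukocyte markers at 30.7 against 11.7 and 16.6 CPM. The part of these marker levels was not tested.

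At day 2, day 6, day 8 and week 2, 3 and 4 edgeR called 0 of 6 members between the regions, against 8.01%, 35.3%, 39.6%, 22.4%, 14.2% and 28.4% of all genes. At an unadjusted p under 0.05 this gave 2 at day 2 (Mcpt4 and Tpsb2) and 0 at each of the others, and DESeq2 called 0 at all of them. At day 8 the ileum differed from the duodenum by -0.32 ± 0.53 for Mcpt1 (95% interval -1.36 to 0.71) and by -0.40 ± 0.54 for Mcpt2 (-1.47 to 0.67).

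The course over age differed between the regions for Tpsb2 by edgeR's interaction test (adjusted p = 0.00967), 1 of 6 where 22.4% of all genes were called. Without the mixed-sex libraries it was 0.0592, where 16.2% of all genes were called. Mcpt1, Mcpt2, Mcpt4, Cpa3 and Cma1 had interaction adjusted p-values from 0.0748 to 0.673 by edgeR, which does not show that their courses were alike.

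Among all genes, those whose log2 CPM followed Mcpt1 most closely over the 46 libraries, after Mcpt2, were Ms4a2 (r = 0.824), Rassf10 (0.816), Ascl2 (0.816), Mcpt9 (0.812) and Lfng (0.792). Ms4a2 is the beta chain of the IgE receptor, Mcpt9 another chymase of the same cluster, Ascl2 a transcription factor of intestinal stem cells and Lfng a modifier of Notch receptors. Over the 16 group means their Spearman correlations with Mcpt1 ran from 0.806 to 0.947. Mcpt4 (r = 0.758) and Cpa3 (0.653) ranked 21 and 221 by r with Mcpt1, while Cma1 and Tpsb2 had r = -0.168 and -0.166. For Cpa3 the closest were its fellow members Mcpt2 (r = 0.744) and Mcpt4 (0.741), then Pla2g4a (0.703), the phospholipase that frees arachidonic acid, Rsu1 (0.687), Frmd4a (0.658), Zfhx3 (0.656) and Rassf5 (0.635). These libraries share ages and regions, so the correlations describe shared courses.

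Ms4a2 was highest by group mean at day 8 in both regions. Its duodenum libraries measured 0, 0 and 0.146 CPM at day 0, 0.967, 1.05 and 0.799 at day 8, 0.106, 0.181 and 0.394 at week 2 and 0.0782, 0.0834 and 0.424 at week 4. Its ileum libraries measured 0, 0 and 0.0238 CPM at day 0, 1.10, 0.577 and 0.509 at day 8 and 0.350, 0.0931 and 0.534 at week 4. In the ileum week 4 overlapped with day 8. The rise to day 8 was called in both regions (edgeR adjusted p = 0.00042 and 0.000392), and week 4 against day 0 was called in the ileum (0.00386) and not in the duodenum (0.188). Fcer1a, the alpha chain of the same receptor, reached no more than 0.154 CPM at day 8.

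**Figure D4:**
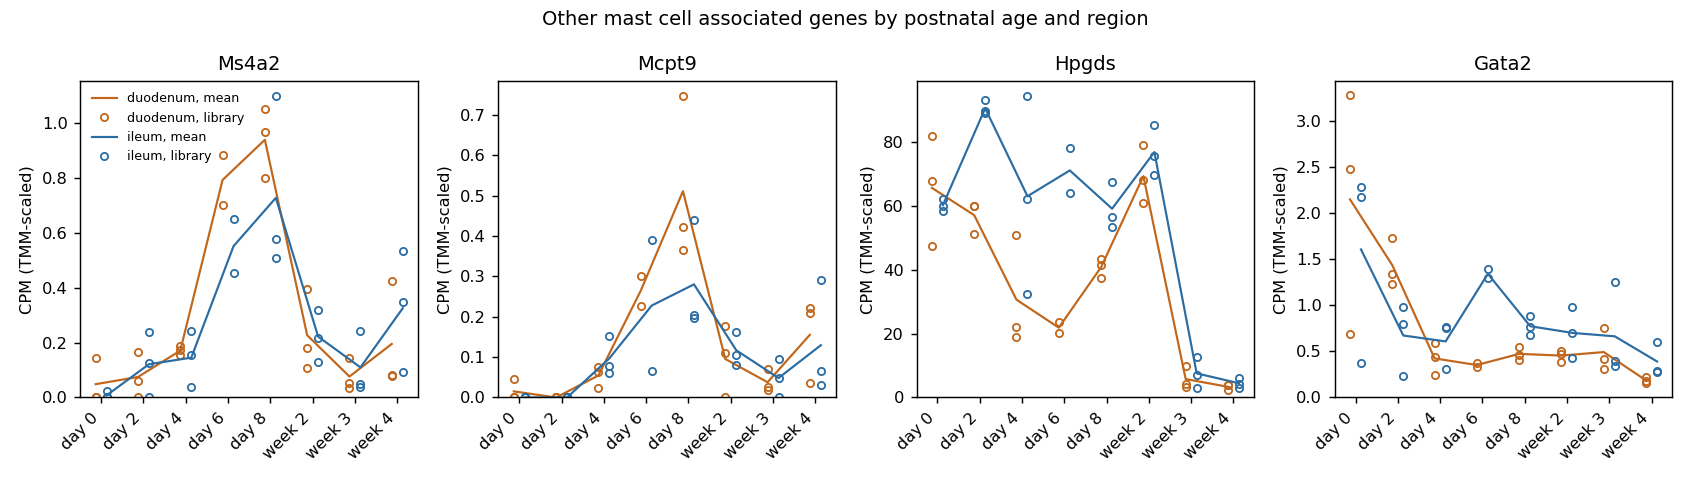
TMM-scaled CPM (y axes, each from 0) of Ms4a2, Mcpt9, Hpgds and Gata2 by age and region, with libraries as open circles and lines joining group means. Ms4a2 and Mcpt9 are highest at day 8, Hpgds is lower at week 3 and week 4 than before, and Gata2 is highest in 4 libraries of day 0.

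The lists that follow are to be read against the share of all genes called: from day 0 to day 8 it was 41.2% in duodenum and 19.3% in ileum, and from day 0 to week 4 it was 40.5% and 41.9%. Of the other granule proteases, 4 of 8 listed genes were tested: Gzmb, Cma2, Mcpt9 and Tpsg1. At day 8 against day 0, 3 were higher in duodenum (median log2 fold change 3.96, against -0.06 over all genes) and 2 in ileum, where 2 of the 4 had 0 counts at day 0 and no median is given. Mcpt9 was 0, 0.0455 and 0 CPM in duodenum at day 0 and 0.747, 0.422 and 0.365 at day 8, and it was 0 in all 3 ileum libraries of day 0 and 0.440, 0.203 and 0.198 CPM at day 8 (edgeR adjusted p = 0.000243 and 0.00211). Cma2 gave 1 count in all at day 0 in duodenum and 69 at day 8, and 0 and 25 in ileum, but it overlaps 2 loci on the other strand and shares sequence with Mcpt4, so its counts are uncertain. At week 4 against day 0, 3 were higher in duodenum and 4 in ileum, led by Gzmb, granzyme B, at 8.26 ± 0.63 and 8.73 ± 0.70 (log2, edgeR adjusted p = 2.02e-13 and 5.88e-13). Gzmb is also a protease of cytotoxic lymphocytes, and the 5 T cell markers summed to 54.2 to 83.3 CPM in duodenum at week 4 against 5.54 to 7.09 CPM at day 0. Mcpt8, Tpsab1, Ctsg and Prss34 did not pass the filter. In the fit without the mixed-sex libraries 5 were tested, of which 3 in duodenum were higher at day 8 and 1, Gzmb, at week 4 (9.83 ± 1.08, edgeR adjusted p = 7.03e-09).

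Of the genes for mast progenitors and growth, all 7 were tested. At day 8, 2 were higher and 1 lower in duodenum and 1 higher and 1 lower in ileum, and at week 4, 1 was higher and 3 lower in duodenum and 2 higher and 2 lower in ileum. Median log2 fold changes were 0.16 and 0.04 at day 8 and -1.15 and 0.73 at week 4 in duodenum and ileum, where those over all genes were -0.06, 0.01, -0.02 and 0.08. Kitl, the growth factor for the receptor Kit, rose by 1.33 ± 0.26 in duodenum and by 1.38 ± 0.27 in ileum at day 8 (log2, edgeR adjusted p = 8.5e-05 and 0.000227). Kit rose by 0.97 ± 0.21 in duodenum at day 8 (edgeR adjusted p = 0.000211) and in ileum by week 4 (1.29 ± 0.21, 2.76e-06), but interstitial cells of Cajal, the gut's pacemakers, make it too. Gata2 fell from day 0 to week 4 by 3.50 ± 0.60 in duodenum and fell by 2.09 ± 0.58 in ileum (log2, edgeR adjusted p = 9.27e-06 and 0.00381), and without the mixed-sex libraries the duodenum value was -1.88 (0.0573). Mitf, another factor of mast cell maturation, was -1.39 ± 0.45 in duodenum at week 4 (edgeR adjusted p = 0.0118) and -0.18 without those libraries (0.872). The duodenum counts without them were 2 higher and 0 lower at day 8 and 1 higher and 1 lower at week 4.

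The IgE receptor and signalling list had 11 of 11 genes tested, with 3 higher and 2 lower at day 8 in duodenum and 3 higher and 1 lower in ileum. At week 4, 6 were higher and 2 lower in duodenum and 8 higher and 2 lower in ileum, with median log2 fold changes of 0.78 and 1.87, against 0.03 and -0.02 at day 8. At day 8 these are 5 of 11 in duodenum and 4 of 11 in ileum, where 41.2% and 19.3% of all genes were called, and the duodenum count is near that share. Fcer2a, the low-affinity IgE receptor of B cells, gave 4 counts at day 0 and 377 at week 4 in duodenum and 1 and 1210 in ileum. Plcg2, a phospholipase shared by B cells and mast cells, rose by 3.47 ± 0.32 in duodenum and by 4.62 ± 0.35 in ileum at week 4 (log2, edgeR adjusted p = 2.44e-11 and 7.72e-14), and Btk by 3.52 ± 0.44 in ileum (1.84e-08). The 3 leukocyte markers summed to 58.0 to 65.4 CPM in duodenum and 112 to 321 CPM in ileum at week 4, against 10.4 to 30.2 and 7.69 to 13.9 CPM at day 0, and the part of other leukocytes in this list was not tested. The duodenum counts of the list without the mixed-sex libraries were 3 higher and 0 lower at day 8 and 4 higher and 2 lower at week 4. At day 8, when the mucosal chymases peaked, the sums were 13.9 to 18.4 CPM in duodenum. These lay above duodenum day 0 number 1 (10.4 CPM) and below the mixed-sex numbers 2 and 3 (21.3 and 30.2 CPM). In ileum the day 8 sums were 24.2 to 34.4 CPM, above the day 0 range. At day 6 the sums were 7.30 to 28.1 CPM in duodenum and 46.9 to 63.8 CPM in ileum.

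Among genes of granule amines, proteoglycan and neuropeptide receptors, 6 of 8 were tested. In duodenum 1 was higher and 3 lower at day 8 and 1 higher and 1 lower at week 4, and in ileum 0 and 1, then 4 and 0. The duodenum medians were -1.11 and 0.08 (log2 fold change), and none is given for ileum, where Mrgprx2 had 0 counts at day 0. Hdc, which makes histamine, fell by 2.00 ± 0.54 in duodenum at day 8 and fell by 2.30 ± 0.55 at week 4 (log2, edgeR adjusted p = 0.00255 and 0.000877), while its ileum value at day 8 was 0.16 ± 0.58 (0.888). Without the mixed-sex libraries Hdc was -1.71 and -1.89 in duodenum (edgeR adjusted p = 0.0725 and 0.05). Srgn, the granule proteoglycan core, rose in ileum at week 4 by 2.29 ± 0.43 (edgeR adjusted p = 3.4e-05), and Slc18a2, the vesicle amine carrier, rose by 1.00 ± 0.29 in duodenum and by 0.82 ± 0.29 in ileum (0.00466 and 0.0211). Mrgprx2 was called in ileum at week 4 on 10 counts in all, with 1 of the 3 libraries at 0. Leaving out the mixed-sex libraries, none of 7 tested was called in duodenum at day 8 and 2 were higher at week 4.

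Of the 7 lipid mediator genes, 1 was higher and 2 lower at day 8 in duodenum and 1 higher in ileum. At week 4, 2 were higher and 2 lower in duodenum and 2 higher and 1 lower in ileum. Median log2 fold changes were 0.60 and 0.30 at day 8 and 0.31 and 0.56 at week 4. Hpgds, a prostaglandin D synthase, fell by 4.28 ± 0.43 in duodenum and fell by 3.79 ± 0.43 in ileum by week 4 (log2, edgeR adjusted p = 3.52e-10 and 4.33e-09). Its libraries ranged from 37.4 to 43.5 CPM in duodenum and 53.4 to 67.5 in ileum at day 8, with no peak there, and from 2.19 to 3.95 and 2.85 to 6.15 CPM at week 4. Alox5, which starts leukotriene synthesis, rose by 3.30 ± 0.50 and 4.31 ± 0.58 at week 4 (edgeR adjusted p = 1.02e-06 and 8.28e-08) and its helper Alox5ap by 2.19 ± 0.52 and 2.74 ± 0.56 (0.00081 and 0.000107). Leukocyte markers were also higher at week 4 than at day 0, as given above, and the part of other leukocytes in this list was not tested. Ptgs2, the inducible cyclooxygenase, fell by 2.13 ± 0.44 in duodenum at week 4 (edgeR adjusted p = 0.000149). Without the mixed-sex libraries 2 were higher and 2 lower in duodenum at day 8 and likewise at week 4, and Alox5ap was 2.01 at week 4 (edgeR adjusted p = 0.0659).

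For mucosal homing and the cytokines that induce mast cells, 17 of 22 genes were tested. In duodenum 2 were higher and 10 lower at day 8 and 4 higher and 9 lower at week 4, and in ileum 2 and 4, then 5 and 6. Median log2 fold changes were -0.97 and -0.90 in duodenum and -0.05 and 0.43 in ileum, against -0.06, -0.02, 0.01 and 0.08 over all genes, of which 41.2%, 40.5%, 19.3% and 41.9% were called. Itgae, the alpha chain of the integrin that holds cells to epithelium, rose by 4.09 ± 0.30 and 3.68 ± 0.30 at week 4 (log2, edgeR adjusted p = 5.96e-14 and 9.02e-13). The 5 T cell markers summed to 54.2 to 83.3 CPM in duodenum and 41.5 to 59.2 in ileum at week 4. At day 0 they summed to 5.54 to 7.09 and 1.55 to 2.88 CPM, and the part of T cells in this list was not tested. Madcam1, the vessel ligand for gut homing, fell by 4.34 ± 0.77 in duodenum and fell by 2.83 ± 0.71 in ileum at week 4 (edgeR adjusted p = 1.73e-05 and 0.00141). Il1rl1, the receptor for interleukin 33, fell by 3.78 ± 0.46 in duodenum and fell by 1.44 ± 0.43 in ileum at week 4 (edgeR adjusted p = 1.26e-08 and 0.00673), and at day 8 it fell by 3.63 ± 0.44 in duodenum (2.99e-08) and rose by 1.24 ± 0.40 in ileum (0.023). Il9r, the receptor for interleukin 9, rose by 3.00 ± 0.87 and 2.45 ± 0.77 (edgeR adjusted p = 0.00559 and 0.0100), while Il9 and Il3 had 0 counts in all 46 libraries. In duodenum without the mixed-sex libraries 1 was higher and 6 lower at day 8 and 4 higher and 5 lower at week 4.

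Markers of neighbouring granulocytes took different courses. Mcpt8, a basophil protease, did not pass the filter, with 83 counts over the 46 libraries, but it measured 0.110 to 0.190 CPM in duodenum and 0.0849 to 0.136 in ileum at day 8, against 0 in all 6 libraries of week 4. Prss34, another basophil protease, had 0 counts in 39 libraries, the 6 of day 8 included. The 4 basophil markers other than Fcer1a, with Ms4a2 among them, summed to 1.67 to 1.96 CPM in duodenum at day 8 and 1.55 to 2.31 at day 0, and to 2.68 to 5.17 and 1.33 to 2.19 CPM in ileum. The 5 eosinophil markers summed to 1.43 to 1.92 CPM in duodenum at day 8 and to 7.95 to 14.1 at week 4, and in ileum to 1.19 to 2.42 and then 4.10 to 16.1 CPM. Epx among these had 0 counts in 27 libraries. The part of basophils in the day 8 values was not tested.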

How the data were processed

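Total RNA of whole-thickness duodenum and ileum was sequenced in 48 samples. The authors deposited estimated counts per gene (tximport), with no normalization, and tables of normalized counts, a signal in which the authors had divided those counts by 1 factor per column (0.542 to 1.81 over 40 columns, as checked here). STAR 2.6.1d, Salmon 0.14.2, DESeq2 1.30.1 and mm10 are named, without roles, per the submitters' processing notes. The annotation release is not given in the sources used here.

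The estimated counts, whole numbers as deposited, were fitted for 46 libraries in 16 groups with edgeR 4.0.16 (R 4.3.3): TMM scaling, filterByExpr with a minimum count of 10, a robust quasi-likelihood fit and Benjamini-Hochberg adjustment over 21986 genes for each of 22 comparisons. The libraries labelled day 6 number 3 were left out. Levels are TMM-scaled CPM. Correlations used log2 CPM with a prior count of 2. The script was tested on simulated data. The alternatives were another scaling (RLE), no filter, DESeq2 1.42.0, all 48 samples, no day 4, each library left out and a replicate block. Leaving out the mixed-sex libraries, those with over 100 CPM of Xist and over 10 of Ddx3y, was chosen after seeing the data. Members and gene lists were chosen with earlier results of these data known. The text names the members, at most 4 genes of each list by their change from day 0 to week 4, and the 5 genes most correlated with Mcpt1 and with Cpa3. Gene positions and shared 31-base stretches come from GENCODE M21, promoters from RefSeq.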

Additional observations from a re-analysis of the deposited data

Results flagged for a closer look

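The libraries labelled day 6 number 3 were used in no comparison, since they look exchanged between the regions, yet they carry the same mast cell genes as the other day 6 libraries. The one labelled duodenum held Mcpt1 at 23.99 CPM, Mcpt2 at 17.62, Mcpt4 at 1.32, Cpa3 at 2.697 and Cma1 at 0.1722 CPM, and the one labelled ileum held Mcpt1 at 17.44, Mcpt2 at 15.36, Mcpt4 at 1.528 and Cpa3 at 3.225 CPM. For Mcpt1, Mcpt2 and Mcpt4 these values lie above all day 0 libraries of either region. Cpa3 in the library labelled duodenum lay below duodenum day 0 number 3 (5.74 CPM), and its Cma1 below numbers 2 and 3 (1.09 and 3.19 CPM). In the other day 6 libraries the levels of Mcpt1, Mcpt2 and Cpa3 overlap between the regions.

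The course of Tpsb2 over age differed between the regions by edgeR's interaction test (adjusted p = 0.00967), and that adjusted p was 0.0592 without the mixed-sex libraries. Of its 459 counts, 279 came from duodenum day 0 number 3.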

How the results depend on the processing

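Mcpt1, Mcpt2 and Mcpt4 from day 0 to day 8 in both regions, and Mcpt1 from day 0 to week 4 in both, kept their direction and their call under every alternative run. Without the mixed-sex libraries 6 values that had been called reversed: Cpa3 0.88, Cma1 0.36 and Tpsb2 4.32 for duodenum week 4 against day 0, Tpsb2 3.36 for duodenum day 8 against day 0, and Cma1 0.29 and Tpsb2 4.35 between the regions at day 0. Cpa3 for duodenum day 8 against day 0, not called at -0.18, also turned, to a called 3.39. The number of members called there was 1 for duodenum week 4 against day 0 and 0 for the averaged regional difference, the interaction and the regional difference at day 0. Without day 4 the number was 4 for duodenum week 2 against day 8, 1 for duodenum week 3 against week 2, 1 for ileum week 4 against week 3, 2 for the averaged regional difference and 2 for the interaction. DESeq2 called 1 in ileum week 4 against week 3 and 2 in the interaction, and with no filter 2 were called in the averaged difference. With the replicate block 2 were called in the averaged difference, 2 in the interaction and 0 between the regions at day 4. Deviations from the group means correlated at a mean r of 0.155 over 23 pairs of the same number and -0.079 over other pairs. Of the 23, 16 were over 0.1, among them all pairs of day 0, day 2, day 6, week 2 and week 3, and at day 4 duodenum number 3 correlated with ileum number 2 at r = 0.73. The numbers are therefore not shown to pair samples at every age. Leaving out 1 library at a time gave 2 to 5 called in duodenum week 4 against day 0, 0 to 3 in ileum week 2 against day 8, 0 to 1 in ileum week 4 against week 3, 1 to 4 in the averaged difference, 1 to 2 in the interaction, 0 to 3 between the regions at day 0 and 0 to 3 at day 4. The cause of these shifts was not tested. The number of all genes called moved by over 1.5 times as follows. Without the mixed-sex libraries it was 5870 for duodenum day 8 against day 0 (9054 with them), 5521 for duodenum week 4 against day 0 (8909) and 82 between the regions at day 0 (1342). With all 48 samples it was 1528 for duodenum week 2 against day 8 (3448 with 46), 417 for that step in ileum (1460), 578, 1024, 3851, 0, 2561 and 1376 between the regions at day 0, 2, 4 and 6 and week 2 and 3 (1342, 1762, 5855, 7762, 4922 and 3117) and 947 in the interaction (4930). Without day 4 it was 2419, 2903 and 5585 between the regions at day 0, day 2 and week 3, 3037 for ileum week 2 against day 8, 4568 for duodenum week 4 against week 3 and 9512 in the interaction. With no filter it was 894 between the regions at day 0 and 886 for ileum week 2 against day 8. Leaving out 1 library gave 60 to 1376 for ileum week 2 against day 8, 825 to 3018 for the same step in duodenum, 2639 to 3685 for ileum day 8 against day 0, 1706 to 2738 and 2331 to 4368 for week 4 against week 3 in duodenum and ileum, and between the regions 484 to 1280 at day 0, 930 to 1447 at day 2, 3206 to 7184 at day 4, 4909 to 5738 at day 6, 3266 to 4301 at week 2, 1658 to 3112 at week 3 and 3256 to 7232 at week 4. Depth limits Cma1, Tpsb2 and Fcer1a, which had 3 counts or fewer in 34, 25 and 43 of 46 libraries.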

Other observations

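The ratio of Mcpt2 to Mcpt1 counts, taken in libraries with at least 20 counts of each, was lower at week 4 than at day 8. In the duodenum it ran from 0.677 to 0.720 at day 8 and from 0.273 to 0.625 at week 4, and in the ileum from 0.519 to 0.736 and from 0.400 to 0.446. The groups did not overlap in either region. The two-tailed exact permutation test gave p = 0.1 in each region, the smallest that 3 against 3 allows. Day 2 duodenum libraries ran from 0.83 to 1.10 and day 2 ileum libraries from 0.60 to 1.08. The 2 genes share sequence, so the ratio also depends on how reads were divided between them.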
